A study of Mus musculus with 75 samples.

Results

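Hippocampus and cerebral cortex of wild type mice were compared by RNA sequencing at postnatal day 21. The members were the libraries titled WT_Hippocampus_RNA 1 to 3 and WT_Cortex_RNA 1 to 3 with plain numbers, which are 6 of the 75 samples of the series and 6 of its 26 RNA libraries. Both groups carry the genotype Wild type on the strain C57BL/6, and the labels give no treatment, allele or transgene for either, so the tissue is the difference that the labels give. Per the labels, total RNA came from crushed and homogenized tissue through the AllPrep DNA/RNA kit and went into TruSeq stranded mRNA libraries. The values are reads per gene, restricted to the 32601 gene identifiers that the files of both tissues list. The remaining 5 wild type cortex libraries were titled with r (2 libraries) or n (3 libraries) before the number. They were used only to see which differences depended on the cortex libraries chosen. Whether the 3 libraries of a tissue stem from different animals is not in the labels, so the spread behind each p-value is that of these libraries and may in part be technical.

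Hippocampus and neocortex are both built from excitatory projection neurons with a minority of inhibitory neurons, but they are laid out differently. The hippocampus is a single folded sheet in which the dentate gyrus feeds CA3 through mossy fibres, CA3 feeds CA1 through Schaffer collaterals, and a small CA2 field lies between them. The neocortex stacks its projection neurons in layers, with intracortical cells above, a thalamus-receiving layer in the middle and subcortically projecting cells below. The dentate gyrus also keeps producing neurons after birth. In bulk tissue, fewer cells of a type and less RNA per cell cannot be told apart, so each value below is a property of the whole dissected piece.

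The 2 tissues differed at a large share of genes. Of 14897 genes tested, 6746 passed an adjusted p of 0.05 (45.3%), of which 3297 were higher in hippocampus (22.1% of genes tested) and 3449 were lower (23.2%). These p-values come from edgeR's quasi-likelihood test with Benjamini-Hochberg adjustment over all genes tested, and a gene that passed is called here. With library totals in place of TMM scaling, 4150 of the calls were higher and 2728 lower. At least 2-fold differences were called at 790 genes in the higher direction (5.30%) and 818 in the lower (5.49%). The hippocampus libraries held 8677149, 17835672 and 14653740 gene counts and the cortex libraries 24448634, 26832653 and 17779056. The first principal component held 81.4% of the variance and separated the tissues. Hippocampus library 1 stood apart from libraries 2 and 3 on the second component, which held 8.0%. The 3 libraries of one tissue all exceeded the 3 of the other at 4043 genes higher in hippocampus (27.1%) and 4154 lower (27.9%). Levels are given as CPM, gene counts scaled to a common library size, which compare libraries for one gene and do not rank genes of unequal length. Fold changes are log2 of hippocampus over cortex with their standard error (SE).

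Most dentate granule cell markers were higher in hippocampus. Of 20 markers tested, 14 were higher in hippocampus, 3 were lower and 3 were not called, against 22.1% and 23.2% of all genes in the 2 directions. The list median was 0.93, against -0.02 over all genes tested. Prox1, the homeodomain factor that sets granule cell identity, had 99, 83.8 and 79.7 CPM in the hippocampus libraries, against 4.32, 5.54 and 3.9 CPM in the cortex libraries. Its log2 fold change was 4.23 (SE 0.13, edgeR adjusted p = 1e-09). Every hippocampus library exceeded every cortex library by a wide margin.

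Dsp, which encodes the desmosomal protein desmoplakin, had 58.4, 42.4 and 37.9 CPM in hippocampus and 1.12, 1.66 and 0.592 CPM in cortex (log2 fold change 5.27, SE 0.26, edgeR adjusted p = 4.6e-07). C1ql2, a C1q-family protein secreted at mossy fibre synapses, had 40.1, 41.5 and 46.1 CPM in hippocampus and 1.29, 1.69 and 1.3 CPM in cortex (log2 fold change 4.88, SE 0.13). Lct, the lactase gene and a known granule cell marker in mouse, had 51.7, 41.3 and 41.1 CPM in hippocampus and 1.91, 2.39 and 1.77 CPM in cortex. In these 3 genes the tissues did not overlap, and hippocampus library 1 was the highest hippocampus library for Dsp and Lct but the lowest for C1ql2. Further down, Tdo2, the tryptophan-degrading dioxygenase (3.24, and 3.83 without cortex library 2), the neurotrophin gene Ntf3 (2.54) and Sema5a (1.10) had at least 2-fold differences on the log2 scale. Smaller called differences were seen for Trpc6 (0.94), Dock10 (0.92), Plk5 (0.83), Rfx3 (0.73) and Maml2 (0.58).

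The 3 markers that were lower in hippocampus were Pdyn, Calb1 and Akap7. Pdyn, which encodes the opioid precursor prodynorphin, had 12, 9.64 and 10.1 CPM in hippocampus and 35, 44.2 and 38.4 CPM in cortex (log2 fold change -1.91, SE 0.12). Calb1, the calcium buffer calbindin, was lower at -0.73 (SE 0.10), and Akap7, a kinase anchor, at -0.48 (SE 0.10). Neither Igfbp5 (-0.13) nor Stxbp6 (-0.10) was called. C1ql3 was not called at 0.27, with an edgeR adjusted p of 0.23, but was called without hippocampus library 1, at 0.44. A block for the replicate number also gave a call (edgeR adjusted p = 0.0029).

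Genes of young neurons and their progenitors were mostly higher in hippocampus as well. Of 20 such genes, 12 were higher in hippocampus and 2 were lower (median 0.77), against 22.1% and 23.2% of all genes tested. Sox11, a factor of newborn neurons, had 31.1, 19.5 and 19.1 CPM in hippocampus and 1.41, 1.15 and 1.12 CPM in cortex (log2 fold change 4.20, SE 0.23, edgeR adjusted p = 1.9e-07). Eomes, which marks intermediate progenitors, had 3.41, 1.76 and 1.69 CPM in hippocampus and 0.0415, 0.192 and 0.177 CPM in cortex (3.93, SE 0.48). Both were highest in hippocampus library 1, which was also highest for Dsp and Prox1.

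Igfbpl1 (2.69, SE 0.18), Draxin (2.28, SE 0.22), the lowly counted Tfap2c (3.19, SE 0.48) and Neurod1 (1.82, SE 0.19) were higher as well. Neurod1 is a bHLH factor of granule cell differentiation and is a member of both lists. Dcx, the microtubule protein of migrating neurons, differed less (0.41, SE 0.14, edgeR adjusted p = 0.033) and was no longer called without hippocampus library 1, cortex library 2 or cortex library 3, where it stood between 0.25 and 0.41. The 2 lower members were Stmn1 (-1.11) and Sox2 (-0.53). Cell division genes did not follow. Of 16 such genes, Ccnb1 alone was called and was lower (-1.18, edgeR adjusted p = 0.028), and it lost its call without hippocampus library 2, hippocampus library 3 or cortex library 3. The proliferation gene Mki67, named after its values were seen, had 7.61, 7.1 and 4.46 CPM in hippocampus and 5.52, 5.27 and 5.56 CPM in cortex. It was not called against the plain series with all libraries, but was called higher without hippocampus library 3, at 0.43, and against the r series, at 0.93.

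CA1 markers gave some of the clearest tissue differences. Of 8 tested, 5 were higher in hippocampus, against 22.1% of all genes tested. The other 3 were not called, and the list median was 2.12. Gpr161, an orphan receptor of the primary cilium, had 45, 81.7 and 90.8 CPM in hippocampus and 4.78, 3.54 and 3.43 CPM in cortex (log2 fold change 4.21, SE 0.30, edgeR adjusted p = 3.5e-05). Fibcd1, a chitin-binding membrane protein, had 130, 224 and 228 CPM in hippocampus and 19.1, 16.3 and 14.7 CPM in cortex (3.54, SE 0.24). Spink8, a serine protease inhibitor, had 8.41, 15.8 and 15.4 CPM in hippocampus and 0.831, 0.731 and 0.828 CPM in cortex (4.08, SE 0.27). Hippocampus library 1 was the lowest hippocampus library for all 3, while remaining above every cortex library. Summed over the 8 genes, CA1 marker CPM was 606.1, 860.4 and 852.9 in hippocampus libraries 1, 2 and 3, whereas the summed dentate list was highest in library 1 (1053, against 984 and 990.4). Which part of the hippocampus each library holds was not tested.

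Wfs1, the endoplasmic reticulum protein wolframin, was higher by a smaller amount (0.71, SE 0.09). Mpped1 (-0.10), Man1a (-0.11) and Ccn3 (-0.51) were not called. Ccn3 was the lowest in hippocampus library 1, with 45.2, 104 and 97.7 CPM in hippocampus and 114, 124 and 118 CPM in cortex, and became a call in the lower direction when that library was left out. Pou3f1, a POU-domain factor, had 18.2, 17.7 and 20.3 CPM in hippocampus and no count in any of the 8 wild type cortex libraries. Against a floor of 3 counts over the 3 plain cortex libraries it was at least 418-fold higher in hippocampus. Placing it at that bound leaves the list median at 2.12. The cortex files were made with another gene annotation than the hippocampus files, so for a gene at 0 in one tissue the annotation and the tissue cannot be told apart.

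CA2 and CA3 markers leaned the same way with smaller differences. Of 8 CA2 markers tested, 6 were higher and 1 was lower (median 1.00), against 22.1% and 23.2% of all genes tested. Fgf2, the basic fibroblast growth factor, had 10, 10.7 and 11.4 CPM in hippocampus and 2.16, 2.04 and 2.37 CPM in cortex (2.30, SE 0.14). Rgs14, a regulator of G protein signalling that limits plasticity in CA2, had 57.7, 68.5 and 67.1 CPM in hippocampus and 26.9, 27.4 and 23.8 CPM in cortex (1.31, SE 0.09). These tissues were separated without overlap, as they were for Amigo2 (1.21), Necab2 (1.10), Stard5 (0.89) and Cacng5 (0.50). Cacng5 lost its call without hippocampus library 2, at 0.38. Pcp4, a calmodulin regulator that also marks deep cortical layers, was the exception at 44.2, 32.9 and 29.3 CPM in hippocampus and 113, 107 and 112 CPM in cortex (-1.66, SE 0.12). Map3k15 was not called (0.46). Summed over 9 genes, CA2 marker CPM was 213, 234.5 and 252.7 in hippocampus and 198.3 to 204 in the plain cortex libraries. The sum was 254.1 and 283.3 in the r series and 217 to 249.6 in the n series. By this sum hippocampus did not exceed every cortex library.

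Of 10 CA3 markers, 5 were higher and 1 was lower (median 0.79), against 22.1% and 23.2% of all genes tested. Iyd, the iodotyrosine deiodinase gene, had 7.84, 8.26 and 5.75 CPM in hippocampus and 0.997, 0.654 and 0.355 CPM in cortex (3.37, SE 0.27, edgeR adjusted p = 1.9e-06). Homer3, a postsynaptic scaffold, had 44.7, 51.1 and 59.2 CPM in hippocampus and 12.9, 13.2 and 12.4 CPM in cortex (2.01, SE 0.11). The kainate receptor subunit Grik4 (1.63), the Bcl2-family gene Bok (1.42) and Cpne4 (1.29) were also higher. Coch, the cochlin gene, ran the other way with 5.34, 6.88 and 7.03 CPM in hippocampus and 43.4, 55.1 and 51.1 CPM in cortex (-2.93, SE 0.13). Socs2 (0.29), Trps1 (0.13), Ociad2 (0.08) and Nectin3 (-0.08) were not called.

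All 6 genes listed for the hippocampus as a whole were higher there (median 2.26), against 22.1% of all genes tested. Zbtb20, the zinc finger repressor required for hippocampal identity, had 365, 312 and 301 CPM in hippocampus and 103, 103 and 102 CPM in cortex (1.66, SE 0.09, edgeR adjusted p = 6.2e-08). Cabp7, a calcium-binding protein, had 324, 316 and 400 CPM in hippocampus and 23.4, 26.7 and 25.8 CPM in cortex (3.78, SE 0.11). Nr3c2, the mineralocorticoid receptor, had 104, 128 and 125 CPM in hippocampus and 23.4, 23.2 and 21.7 CPM in cortex (2.39, SE 0.09). The paired glucocorticoid receptor Nr3c1, named after its values were seen, leaned the other way (-0.38, SE 0.11, edgeR adjusted p = 0.017) but was not called without cortex library 1, hippocampus library 2 or hippocampus library 3. The protease gene Klk8 (2.38), the actin regulator Wipf3 (2.13) and the serotonin receptor Htr1a (0.84) completed the list.

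**Figure D1:**
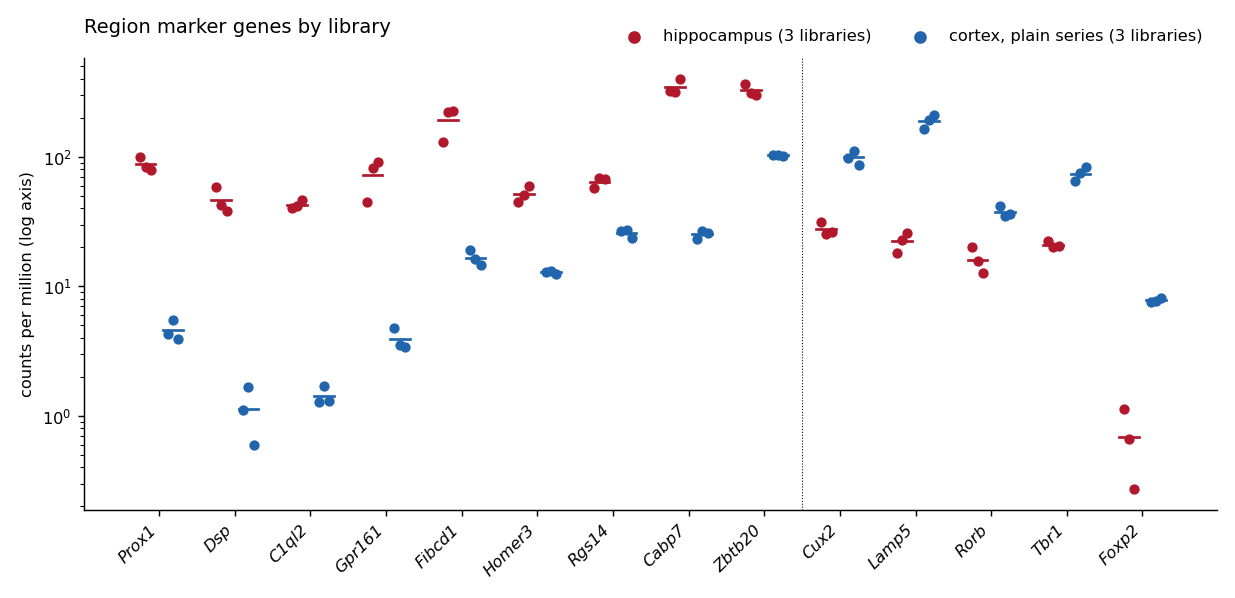
CPM on a log axis for 14 marker genes, 9 of hippocampal fields left of the dotted line and 5 of cortical layers right of it, with 1 point per library (red, hippocampus; blue, cortex plain series) and a bar at each mean. The 14 were picked from the lists and all lie in the direction of their region. List members that went the other way, among them Pdyn, Pcp4, Coch, Mdga1 and Bhlhe22, are not shown, and neither are layer 5 markers. The groups do not overlap for any of the 14, with Prox1 at 79.7 to 99 CPM in hippocampus and 3.9 to 5.54 CPM in cortex, and Tbr1 at 20 to 22.4 CPM in hippocampus and 64.7 to 83.8 CPM in cortex.

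Upper layer markers of the cortex were lower in hippocampus at 9 of 13 genes and higher at 3 (median -1.04). Over all genes tested, 23.2% were lower and 22.1% higher. Cux2, a homeodomain factor of upper layers, had 31.6, 25.2 and 26.2 CPM in hippocampus and 97.7, 112 and 87.3 CPM in cortex (-1.85, SE 0.11). Lamp5, a membrane protein of upper layer and neurogliaform cells, had 18, 22.9 and 26 CPM in hippocampus and 164, 194 and 211 CPM in cortex (-3.07, SE 0.14).

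Plxnd1 (-1.49), Unc5d (-1.45), Stard8 (-1.21), Otof (-1.04), Rasgrf2 (-0.74) and Cux1 (-0.43) were also lower. Lhx2 was not called (-0.02). The 3 higher members were the adhesion gene Mdga1, with 59.9, 73.5 and 82.4 CPM in hippocampus and 19.4, 20.7 and 25.8 CPM in cortex (1.72, SE 0.13), the bHLH repressor Bhlhe22 (1.49) and the activity-regulated activin subunit Inhba (1.47), which was not called against the r series (0.54). Of 7 layer 4 markers, 6 were lower (median -0.91), against 23.2% of all genes tested. Rorb, the nuclear receptor of layer 4, had 20, 15.8 and 12.6 CPM in hippocampus and 41.8, 35.2 and 36.5 CPM in cortex (-1.26, SE 0.14). The voltage-gated channel gene Kcnh5 (-2.34), the Wnt amplifier Rspo1 (-2.02) and Whrn (-0.91) were lower too. Endou (-0.66) and Cyp39a1 (-0.91) were called but lost their calls without 4 and 3 of the 6 libraries, each left out alone, and Scnn1a was not called (0.01).

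Layer 6 markers were lower at 11 of 16 genes, with 1 higher (median -1.07), against 23.2% and 22.1% of all genes tested. Tbr1, the T-box factor of corticothalamic neurons, had 22.4, 20 and 20.6 CPM in hippocampus and 64.7, 74.8 and 83.8 CPM in cortex (-1.83, SE 0.10, edgeR adjusted p = 8.7e-08). Foxp2, a forkhead factor of the same neurons, had 1.14, 0.661 and 0.271 CPM in hippocampus and 7.6, 7.66 and 8.16 CPM in cortex (-3.62, SE 0.27). The kappa opioid receptor gene Oprk1 (-3.05), Syt6 (-2.32), the complexin gene Cplx3 (-2.25), Nxph3 (-1.49), Rprm (-1.47), Ccn2 (-1.23) and the neurotensin receptor gene Ntsr1 (-0.91) were lower. Sla (-0.37) and Tle4 (-0.26) were lower by less, and both lost their calls when single libraries were left out. Hs3st4, a heparan sulfate sulfotransferase, was the higher member with 85.5, 99.2 and 105 CPM in hippocampus and 62.5, 64.8 and 74.2 CPM in cortex (0.53, SE 0.09). Nxph4 (-0.74), Moxd1 (-0.41), Osr1 (-0.04) and Nr4a2 (0.10) were not called. Moxd1 was called once replicate numbers entered as a block (edgeR adjusted p = 0.014).

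Layer 5 markers did not share that direction. Of 17, 8 were higher in hippocampus and 4 were lower, with a median of 0.27. Over all genes tested, 22.1% were higher and 23.2% lower, so the lower count was near the share of all genes. Crym, a thyroid hormone binding protein, had 99.4, 159 and 177 CPM in hippocampus and 39, 34.4 and 38.4 CPM in cortex (1.97, SE 0.20). Bcl11b, the zinc finger factor known as Ctip2, which marks subcortically projecting neurons in cortex and also CA1 and dentate neurons, had 67.2, 69.1 and 77.6 CPM in hippocampus and 32.8, 32.1 and 32.5 CPM in cortex (1.14, SE 0.08). Its partner in corticofugal fate, Fezf2, was higher by 0.97, as were Npr3 (1.04), Bcl6 (0.66), Fam84b (0.45), Sulf2 (0.39) and Kcnn2 (0.38). The last 3 lost their calls in at least 2 of the fits that left out a single library, and the count of higher members was 5 without hippocampus library 2. Rbp4, the retinol carrier, was lower with 3.18, 5.56 and 4.87 CPM in hippocampus and 15.7, 17.2 and 17 CPM in cortex (-1.81, SE 0.15). Colgalt2 (-0.73), Deptor (-0.68) and Trib2 (-0.39) were lower too. Tcerg1l (0.16), Parm1 (0.10) and S100a10 (-0.05) were not called. Etv1 (0.27) and Ldb2 (-0.45) were not called either, but were called with the replicate number as a block, at edgeR adjusted p = 0.013 and 0.0012. The list median depended on the cortex libraries, at -0.11 with the r series and 0.37 with the n series in place of the plain one.

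**Figure D2:**
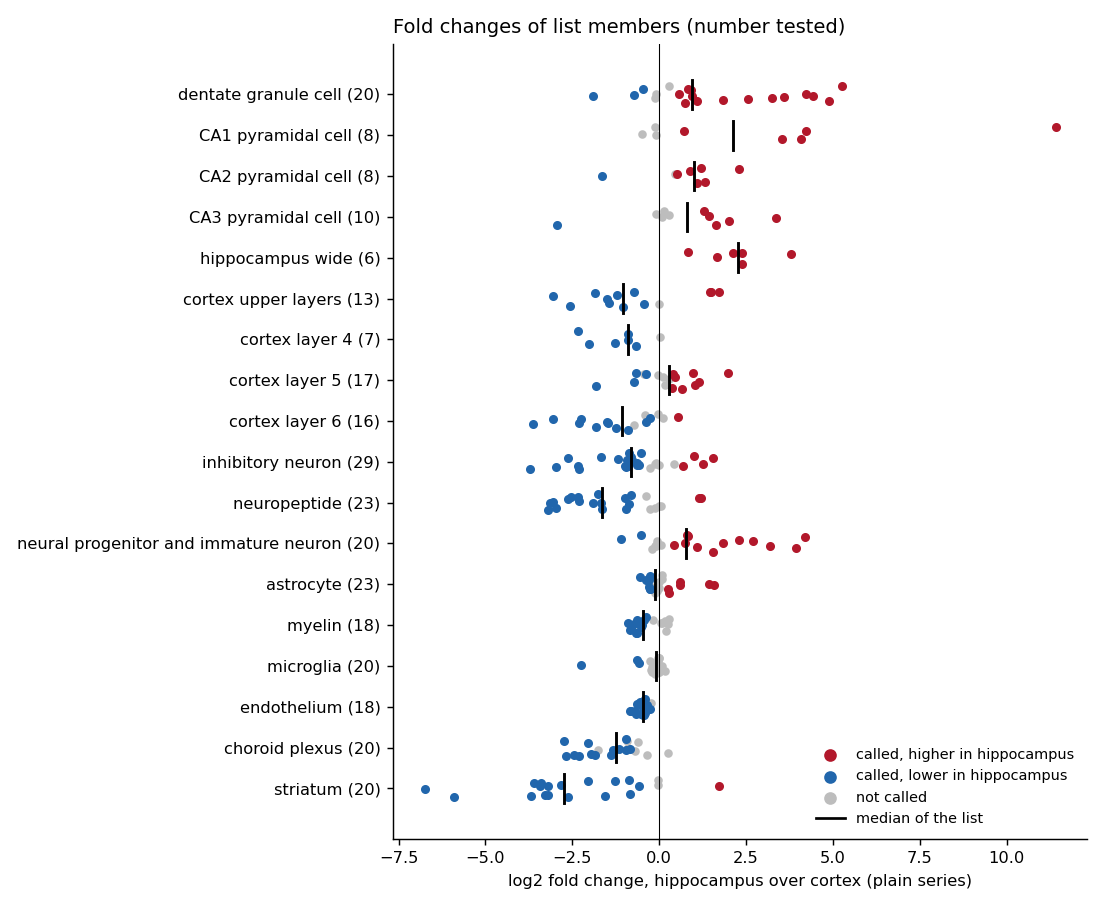
Log2 fold change of hippocampus over cortex for every tested member of 18 gene lists, 1 point per gene, red where called higher, blue where called lower and grey where not called, with a black bar at the list median. Medians lie between 0.79 and 2.26 for the 5 hippocampal lists and between -1.07 and 0.27 for the 4 cortical layer lists, and the striatum list reaches furthest to the left with a median of -2.73. The point at 11.41 is Pou3f1, whose fitted value depends on the prior count because its cortex counts are 0.

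Several of the transcription factors that differed, among them Neurod1, Neurod2, Neurod6 and Bhlhe22, bind the E-box, so the 250 bases upstream of the transcription start of the listed region genes were searched for 2 E-box forms. The forms were CAGCTG, which is its own reverse complement, and CAGATG, also read as CATCTG on the other strand. The 2 forms cannot overlap each other. Sequences and positions are from RefSeq on mouse build GRCm38.p6, first-listed start of each gene, while the reads were aligned to mm9. Among 27025 promoters, 12.8% held CAGCTG, 14.5% held CAGATG and 25.3% held either. Either form was found in 2 of 18 dentate, 2 of 5 CA1, 0 of 6 CA2, 1 of 8 CA3 and 0 of 6 hippocampus-wide promoters. Among cortex lists it was found in 1 of 9 upper layer, 1 of 4 layer 4, 2 of 10 layer 5 and 2 of 9 layer 6 promoters. Promoters of 5 called genes with a match are shown, 3 of genes higher in hippocampus (Prox1, Gpr161, Iyd) and 2 of genes lower there (Kcnh5, Cplx3). They are written 5′ to 3′ on the strand of the gene and capitals mark the E-box.
Prox1 (chr1:190170828-190171077, minus strand): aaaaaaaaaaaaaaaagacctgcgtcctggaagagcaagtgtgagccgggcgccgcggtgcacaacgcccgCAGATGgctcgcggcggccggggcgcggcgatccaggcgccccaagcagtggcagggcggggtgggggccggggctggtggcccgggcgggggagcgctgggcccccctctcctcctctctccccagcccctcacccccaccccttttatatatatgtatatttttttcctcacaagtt
Gpr161 (chr1:165295516-165295765, plus strand): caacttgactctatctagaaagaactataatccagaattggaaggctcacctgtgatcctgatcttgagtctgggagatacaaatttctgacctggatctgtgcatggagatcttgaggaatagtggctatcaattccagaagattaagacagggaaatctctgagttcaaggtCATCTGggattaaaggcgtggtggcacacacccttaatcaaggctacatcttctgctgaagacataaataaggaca
Iyd (chr10:3540024-3540273, plus strand): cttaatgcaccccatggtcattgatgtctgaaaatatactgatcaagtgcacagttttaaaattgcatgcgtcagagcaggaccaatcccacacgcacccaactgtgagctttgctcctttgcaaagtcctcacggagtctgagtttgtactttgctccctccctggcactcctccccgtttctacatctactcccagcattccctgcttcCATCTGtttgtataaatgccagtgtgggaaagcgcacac
Kcnh5 (chr12:75177333-75177582, minus strand): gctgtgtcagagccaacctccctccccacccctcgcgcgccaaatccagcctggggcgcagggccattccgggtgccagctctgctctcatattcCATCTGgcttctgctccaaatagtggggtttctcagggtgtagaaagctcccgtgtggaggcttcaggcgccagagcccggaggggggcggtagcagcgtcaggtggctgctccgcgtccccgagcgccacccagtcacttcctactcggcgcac
Cplx3 (chr9:57606282-57606531, minus strand): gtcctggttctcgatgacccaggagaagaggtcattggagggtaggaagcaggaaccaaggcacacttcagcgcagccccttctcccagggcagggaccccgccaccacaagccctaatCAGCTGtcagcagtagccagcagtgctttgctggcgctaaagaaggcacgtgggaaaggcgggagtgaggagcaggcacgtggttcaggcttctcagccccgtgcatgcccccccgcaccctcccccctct
The match is CAGATG or its reverse CATCTG in Prox1, Gpr161, Iyd and Kcnh5 and CAGCTG in Cplx3, 1 in each. A match describes these letters only and says nothing of binding.

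Inhibitory neuron genes were mostly lower in hippocampus, at 20 of 29 genes with 4 higher (median -0.80). Over all genes tested, 23.2% were lower and 22.1% higher. Npy, neuropeptide Y, had 16.6, 30.3 and 20.6 CPM in hippocampus and averaged 116 ± 2.8 CPM in cortex (SD, n = 3), with a log2 fold change of -2.34 (SE 0.17, edgeR adjusted p = 5.7e-06). Vip, the peptide of a disinhibitory interneuron class, had 8.75, 12.8 and 13.7 CPM in hippocampus and 49.8, 60.4 and 69.4 CPM in cortex (-2.31, SE 0.16). Crh (-2.96), Tac1 (-2.63), Tac2 (-1.68) and the lowly counted Chodl (-3.72, and -4.33 without hippocampus library 1) were also lower.

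The genes of GABA synthesis and of the larger interneuron classes differed by less. Named after their values were seen, Gad1 (-0.59, SE 0.17) and Gad2 (-0.80, SE 0.17) encode the GABA-producing enzymes, Pvalb (-0.91, SE 0.13) encodes parvalbumin and Sst (-0.99, SE 0.26) somatostatin. Sst had 48.2, 107 and 76.4 CPM in hippocampus and 145, 169 and 151 CPM in cortex, and was not called without hippocampus library 3. Higher in hippocampus were Calb2, which encodes calretinin and is also made by young granule cells (1.54, SE 0.16), Nos1 (1.27), Ndnf (0.99) and Adarb2 (0.67). Lhx6 (-0.13), Sox6 (-0.02), Reln (-0.28), Cnr1 (-0.10) and Htr3a (0.41) were not called.

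Neuropeptide genes as a list stood further from equality than the inhibitory list, with 16 of 23 lower, 2 higher and a median of -1.65. The shares over all genes tested were 23.2% lower and 22.1% higher. Penk, which encodes proenkephalin, had 10.6, 18.7 and 17.1 CPM in hippocampus and 132, 141 and 163 CPM in cortex (-3.19, SE 0.17, edgeR adjusted p = 3.7e-07). Cartpt (-3.14), Trh (-3.06) and Adcyap1, the PACAP gene (-2.55), were lower too. The 2 higher members were Grp (1.20), the gastrin-releasing peptide gene, and Chgb (1.15), a granin of secretory granules. Penk and Tac1 are also striatal genes, whose levels are given below.

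Of 32 forebrain transcription factors, 11 were higher and 12 were lower (median 0.01), against 22.1% and 23.2% of all genes. Mef2c, an activity-dependent factor of cortical neurons, had 67.2, 61.2 and 60.1 CPM in hippocampus and 381, 386 and 398 CPM in cortex (-2.63, SE 0.08, edgeR adjusted p = 7.3e-10). Lhx9, a LIM homeodomain factor, had 5.34, 6.66 and 10 CPM in hippocampus and 0.0831, 0.308 and 0.237 CPM in cortex (5.11, SE 0.37). Neurod6, a bHLH factor of maturing pyramidal neurons, had 51.8, 71.7 and 73.9 CPM in hippocampus and 18.8, 17.3 and 19.2 CPM in cortex (1.85, SE 0.13). Neurod2, its relative (1.10), and Dmrt3, at low counts (3.59, SE 0.45), were higher as well. Rxrg (-2.52), Sp8 (-1.45), Tox (-1.33), Meis2 (-1.32) and Rarb (-1.27) were lower. Emx2 (0.03) and Pax6 (-0.03), which act in the embryonic forebrain, were not called.

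Glutamate receptor subunits were called in both directions. Of 17 ionotropic subunits, 7 were higher in hippocampus and 4 were lower, against 22.1% and 23.2% of all genes tested. Gria1, the AMPA receptor subunit abundant at CA1 synapses, had 673, 930 and 898 CPM in hippocampus and 217, 255 and 272 CPM in cortex (1.75, SE 0.13, edgeR adjusted p = 1.6e-06). Gria4, an AMPA subunit of interneurons, was lower with 36.5, 50.4 and 45.7 CPM in hippocampus and 85.9, 92.9 and 98.6 CPM in cortex (-1.05, SE 0.11). Among kainate subunits Grik4 was higher (1.63) and Grik3 lower (-0.96). Gria3 was also lower (-0.37), and only 2 of the 4 lower calls were made without hippocampus library 3 or without cortex library 2.

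The NMDA receptor subunits Grin2a and Grin2b had the largest differences of this family. Grin2a had 186, 222 and 236 CPM in hippocampus and 5.32, 6.7 and 7.33 CPM in cortex (5.07, SE 0.14), and Grin2b had 350, 457 and 441 CPM in hippocampus and 16, 19.7 and 22.4 CPM in cortex (4.43, SE 0.15). Against the r and n cortex series the values were 4.72 and 5.10 for Grin2a and 4.45 and 4.58 for Grin2b. Grin1, the obligatory subunit with which both assemble and named here after its values were seen, had 427, 548 and 538 CPM in hippocampus and 329, 447 and 417 CPM in cortex (0.34, SE 0.13). Its edgeR adjusted p was 0.051. With replicate numbers as a block it was called, at an adjusted p of 6.9e-05. For Grin2a, Grin2b and Grin1 alike, the identifier carries another version suffix in the hippocampus files than in the cortex files. The same holds for 89.6% of all genes tested, so the suffix does not set Grin2a and Grin2b apart from Grin1. With a different suffix the annotated gene model differed, and model and tissue cannot be told apart.

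Of 7 metabotropic receptors, 2 were higher and 3 lower, against 22.1% and 23.2% of all genes tested. The group II receptor Grm2 was higher by 0.53. Grm8 (-2.06), Grm4 (-1.46) and the largely astrocytic Grm3 (-1.14) were lower. Without hippocampus library 1, 4 members were called higher. GABA receptor subunits were lower at 9 of 15 genes and higher at 3 (median -0.81). Gabra5, the extrasynaptic alpha subunit typical of hippocampal pyramidal cells, had 127, 166 and 165 CPM in hippocampus and 41, 48.9 and 50.9 CPM in cortex (1.71, SE 0.12, edgeR adjusted p = 9.8e-07). Gabrb1 (2.40) and Gabra2 (1.29) were the other higher subunits. Gabrd, the delta subunit of extrasynaptic receptors, had 27.6, 26.3 and 22.9 CPM in hippocampus and 96.6, 108 and 106 CPM in cortex (-2.02, SE 0.09). Gabrb2 (-2.27), Gabra3 (-1.71) and Gabra4 (-1.09) were lower, so alpha and beta subunits were found in both directions.

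**Figure D3:**
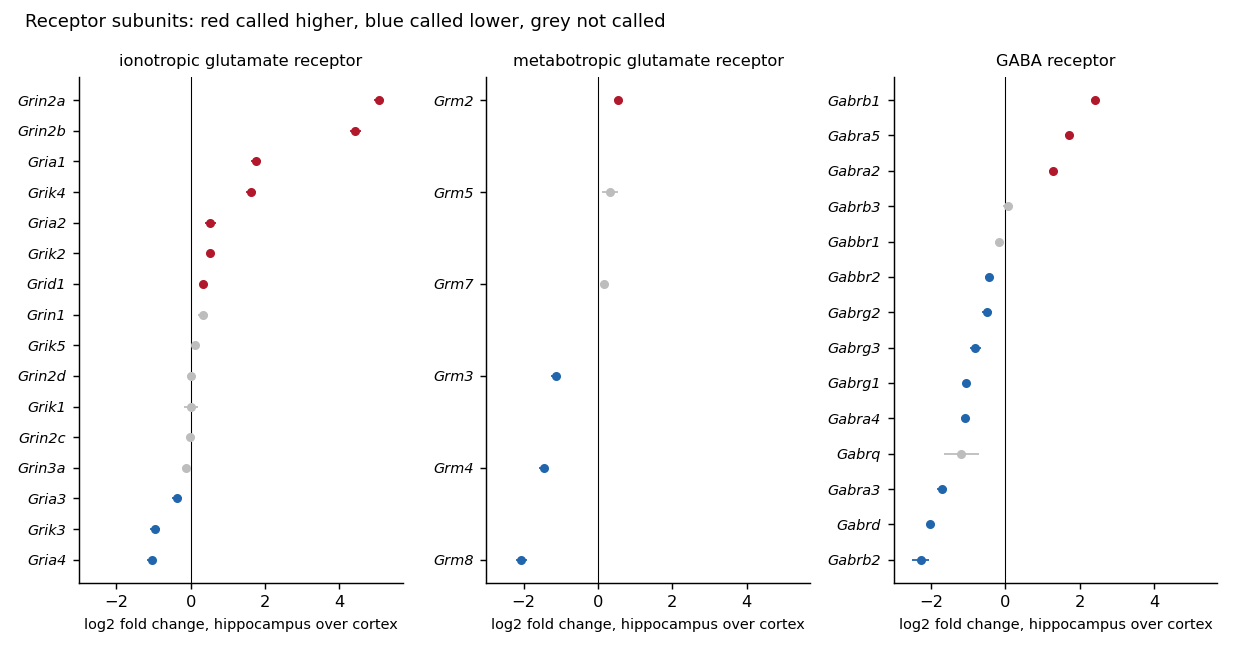
Log2 fold change of hippocampus over cortex with its SE for ionotropic glutamate, metabotropic glutamate and GABA receptor genes, red where called higher, blue where called lower and grey where not called. Grin2a and Grin2b lie apart at 5.07 and 4.43, and the GABA receptor genes run from Gabrb2 at -2.27 to Gabrb1 at 2.40.

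Receptors for modulators and potassium channels contained large differences in both directions. Of 43 modulatory receptors, 14 were higher and 18 lower, against 22.1% and 23.2% of all genes tested. Htr4, a serotonin receptor, had 10, 11.7 and 12.7 CPM in hippocampus and 0.623, 1.08 and 1.06 CPM in cortex (3.65, SE 0.20, edgeR adjusted p = 6.6e-08). The muscarinic receptor gene Chrm5 was higher at low counts (4.13, SE 0.47). Oprk1 (-3.05), Htr1d (-3.54, and -4.59 without hippocampus library 2) and the dopamine receptor genes Drd1 (-3.42) and Drd2 (-3.29) were lower. Of 62 potassium channel genes, 19 were higher and 30 lower (median -0.24). Kcnq3, a subunit of the M-current, had 154, 194 and 175 CPM in hippocampus and 26, 27.5 and 27.5 CPM in cortex (2.70, SE 0.10). Kcnk9 (3.03), a leak channel, and Kcnn3 (2.44), a calcium-activated channel, were higher, while Kcnh4 (-3.78) and Kcna1 (-2.35) were lower.

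Adhesion and guidance genes were called in both directions, where 22.1% of all genes tested were higher and 23.2% lower. Of 25 cadherins and delta protocadherins, 10 were higher and 12 lower. Pcdh20 had 87.6, 120 and 135 CPM in hippocampus and 31.6, 29.4 and 34.9 CPM in cortex (1.85, SE 0.14), and Cdh24 was also higher (1.92), while Cdh7 (-2.13), Pcdh11x (-1.58) and Cdh22 (-1.51) were lower. Of 52 axon guidance genes, 23 were higher and 15 lower. Slit1, a secreted repellent, had 206, 271 and 285 CPM in hippocampus and 37, 46.1 and 44.3 CPM in cortex (2.58, SE 0.13, edgeR adjusted p = 1e-07). The netrin receptor Dcc (2.80), the ephrin receptor Epha6 (2.40) and the semaphorin receptor Nrp2 (2.25) were higher. Sema3a, a secreted semaphorin, had 1.59, 2.59 and 2.3 CPM in hippocampus and 30.3, 33.5 and 37.4 CPM in cortex (-3.90, SE 0.15). Sema3f was lower (-1.79), so a class 3 semaphorin receptor and 2 of its family's ligands were called in opposite directions.

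Of 39 synaptic organizers, 8 were higher and 16 lower, against 22.1% and 23.2% of all genes tested. Besides C1ql2, Cbln2, a cerebellin, had 5.45, 6.88 and 5.48 CPM in hippocampus and 37.3, 46 and 57.1 CPM in cortex (-2.95, SE 0.17), and Lrrtm3 was lower (-1.92). Wnt pathway genes were lower at 18 of 46 and higher at 4 (median -0.20). Fzd3 (1.89), a Wnt receptor in axon growth, and Nkd2 (1.54), a feedback inhibitor, were higher, while the ligands Wnt2b (-3.25), Wnt10a (-1.73) and Wnt9a (-1.70) were lower. With the replicate number as a block 9 Wnt genes were higher, without hippocampus library 1 there were 7, and 13 and 12 were higher against the r and n cortex series (medians -0.02 and 0.00). Of 37 kinase and cyclic nucleotide signalling genes, 11 were higher and 16 lower. Camk4, a nuclear calcium kinase, had 19.5, 22.3 and 28.9 CPM in hippocampus and 284, 298 and 297 CPM in cortex (-3.62, SE 0.13, edgeR adjusted p = 2.1e-09). Camk2b was higher (1.20), and Rgs4 (-1.79) and Prkar2b (-1.47) lower. Of 22 calcium-binding proteins, 5 were higher and 13 lower. Hpca, hippocalcin, had 597, 682 and 803 CPM in hippocampus and 233, 254 and 242 CPM in cortex (1.52, SE 0.11), while Necab3 (-1.83) and Necab1 (-1.38) were lower.

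Endothelial genes were lower at 17 of 18 with a median of -0.48, against 23.2% of all genes. Against the r series 5 were lower (median -0.16) and against the n series 11 (median -0.41). The shares of all genes called lower there were 26.5% and 23.9%. Itm2a had 117, 105 and 113 CPM in hippocampus and 225, 189 and 186 CPM in cortex (-0.85, SE 0.09), and the thyroid hormone transporter Slco1c1 was lower (-0.80). Myelin genes were lower at 11 of 18 (median -0.47) with Cldn11 at -0.89, Mal at -0.72 and Mog at -0.64. Without hippocampus library 3, 4 myelin genes were called higher, as were 4 against the r series. Mbp, the myelin basic protein gene and named after its values were seen, was not called (0.25, SE 0.16), but was called higher without hippocampus library 3, at 0.43, and against the r series, at 0.70.

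Of 23 astrocyte genes, 6 were higher and 7 lower (median -0.11), against 22.1% and 23.2% of all genes tested. These shares also stand beside the microglia and precursor counts against the plain series. Gfap, the intermediate filament of fibrous astrocytes, had 812, 614 and 619 CPM in hippocampus and 251, 268 and 231 CPM in cortex (1.44, SE 0.12, edgeR adjusted p = 2e-06), and Agt, angiotensinogen, was higher by 1.57. Slc1a3, a glutamate transporter, was lower (-0.38). The lower astrocyte count was 3 without hippocampus library 2, 4 without cortex library 3 and 11 without hippocampus library 1 or with the block. Against the r series 9 astrocyte genes were higher and 2 lower, and against the n series 6 were higher and 2 lower. Of 20 microglia genes 3 were lower, with Itgam at -2.24 far from P2ry12 (-0.58) and Gpr34 (-0.64). Without hippocampus library 1, 10 microglia genes were lower, and with the block 6, whereas against the r series 7 were higher and 3 lower. Of 12 oligodendrocyte precursor genes, Tnr (2.17) and Sox10 (0.34) were higher and Pdgfra (-0.44) and Olig2 (-0.31) lower. Of these, Sox10 and Olig2 lost their calls when single libraries were left out. The lower count was 4 without hippocampus library 1, 1 without hippocampus library 3 or cortex library 3, and 5 with the block, and against the r series 5 were higher and 1 lower.

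Striatal genes were lower in hippocampus at 17 of 20 with 1 higher (median -2.73), against 23.2% and 22.1% of all genes tested. Scn4b (-3.69), Gpr6 (-3.40) and Six3 (-3.60) were among the lower genes, and the higher member was Lrrc10b (1.73). Summed over 21 genes, striatal marker CPM was 743 to 820.9 in hippocampus, 1562 to 1724 in the plain cortex libraries, 1257 to 1338 in the r series and 1315 to 1807 in the n series. Ido1 had 1 count in the 3 hippocampus libraries and 123 in the plain cortex libraries, a 77-fold ratio whose exact 95% interval for counting error runs from 14 to 3053. The share of these levels that comes from cortical neurons or from adjoining striatum was not tested. Penk, Tac1, Drd1 and Drd2, given above, are members of this list and part of its counts and sums.

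Choroid plexus genes were lower at 13 of 20 (median -1.25), against 23.2% of all genes tested, but the cortex libraries disagreed with each other. Ttr, transthyretin, had 56.8, 82.9 and 68 CPM in hippocampus and 497, 728 and 116 CPM in cortex (-2.68, SE 0.77, edgeR adjusted p = 0.048). Its adjusted p with the block was 0.13. The summed choroid level was 296.9 to 376.4 CPM in hippocampus, 608.5 to 1529 CPM in the plain cortex series, 413.1 to 791.4 CPM in the r series and 356.4 to 862.2 CPM in the n series. With the r and n series the list median was -0.03 and -0.10, and 2 genes were lower against each, where 26.5% and 23.9% of all genes were lower. The count of lower genes ran from 4 to 16 when single libraries were left out. It was 6, 8 and 4 without hippocampus library 1, 2 and 3, and 7, 6 and 16 without cortex library 1, 2 and 3.

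Mural and meningeal genes were lower at 8 of 20 (median -0.28), and the median was 0.61 with the r series and 0.08 with the n series. Over all genes tested against the plain series, 22.1% were higher and 23.2% lower. Without cortex library 1, 3 of these genes were higher, and against the r series 10 were higher and 2 lower. Igf2, a growth factor made by meninges and choroid plexus, had 2.05, 1.32 and 1.01 CPM in hippocampus and 137, 114 and 71.9 CPM in cortex (-6.29, SE 0.37), with -5.20 and -5.71 against the r and n series. Ptgds had 213, 151 and 115 CPM in hippocampus and 761, 568 and 345 CPM in cortex (-1.81), against 0.79 with the r series. Of 11 thalamic genes, Prkcd (0.81) and Ntng1 (0.72) were higher, and 4 were lower, among them Slc17a6 (-1.15) and Rora (-0.88), with 2 lower without hippocampus library 2 or cortex library 1, and 4 higher and 2 lower against the r series. None of the 9 blood genes was called by edgeR, 6 were lower and 1 higher with the block, and 2 were lower without cortex library 2. Against the r series 4 blood genes were higher and 1 lower (median 1.00). Of 7 ependymal genes 2 were lower, Mia (-1.65) and Tmem212 (-1.23), with 0 lower against the r series and 4 against the n series. Tmem212 lost its call without hippocampus library 3, cortex library 1 or cortex library 2.

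**Figure D4:**
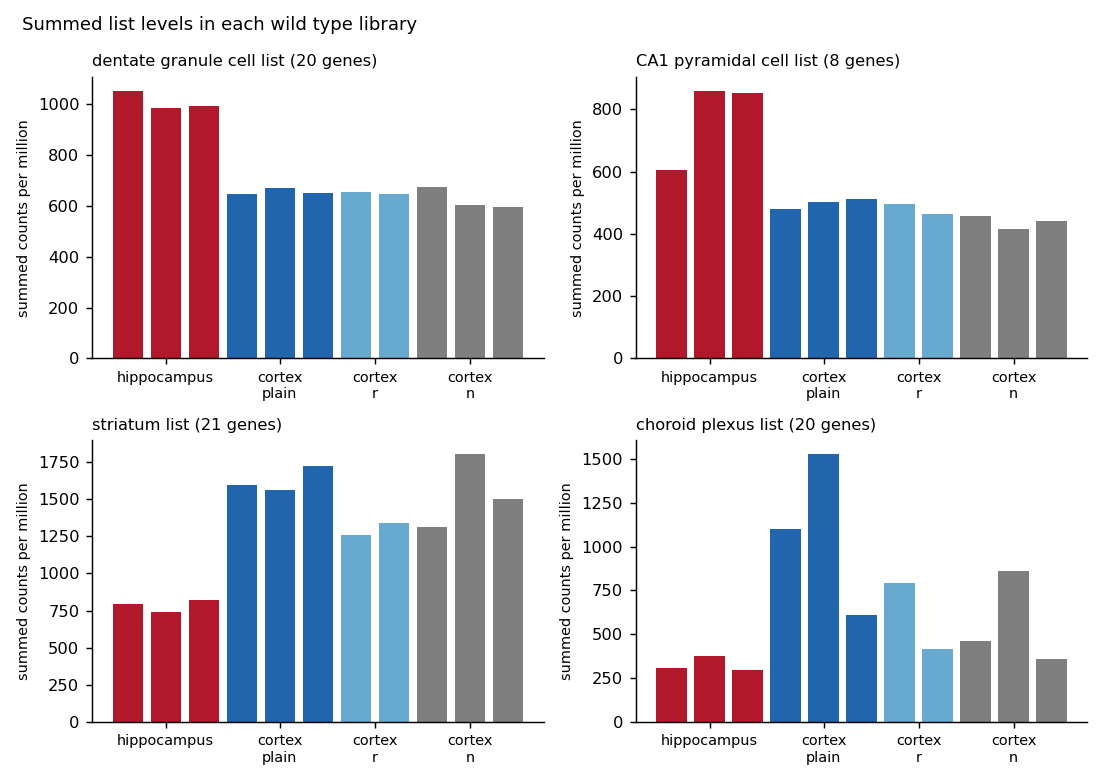
Summed CPM of 4 marker lists in each of the 11 wild type libraries, 1 bar per library, with the hippocampus libraries left (red) and the plain, r and n cortex series to the right. Dentate and CA1 sums are higher in hippocampus than in every cortex library, with hippocampus library 1 at 606.1 CPM for CA1, striatal sums are lower in hippocampus, and choroid sums vary from 356.4 to 1529 CPM among the cortex libraries.

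Most called genes of energy metabolism were lower in hippocampus. Of 83 nuclear genes of oxidative phosphorylation, 39 were lower and 2 higher, with a median of -0.20. The lower count was 24 without hippocampus library 2. Over all genes tested, 23.2% were lower and 22.1% higher. All 10 mitochondrially encoded genes tested were lower, with 5 lower against the r series and 7 against the n series. Of these, mt-Co3 (-4.04), mt-Co2 (-3.53) and mt-Atp6 (-3.45) lay apart from the other 7, which ran from mt-Nd2 (-0.77) to mt-Cytb (-0.38). The cortex files were made with another gene annotation, so tissue and annotation cannot be told apart for mt-Co3, mt-Co2 and mt-Atp6. Ribosomal protein genes were lower at 15 of 81 and higher at 5 (median -0.01), where 23.2% of all genes were lower and 22.1% higher. Against the r series 49 were lower (median -0.42) and against the n series 58 (median -0.41). The shares of all genes called lower there were 26.5% and 23.9%. The lower count was 7, 8 and 9 without hippocampus library 2, cortex library 1 and cortex library 2, and 26 without hippocampus library 1. The higher count was 9 with the block and 3 without cortex library 3.

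Of 27 activity-regulated genes, 7 were higher and 7 lower, near the 22.1% and 23.2% of all genes. Against the r series 6 were higher and 9 lower, and against the n series 5 were higher and 16 lower. Nr4a3, an orphan nuclear receptor, had 65.5, 72.9 and 85.4 CPM in hippocampus and 25.1, 22.1 and 24.7 CPM in cortex (1.64, SE 0.10), and the cyclooxygenase gene Ptgs2 (1.36) and Egr3 (1.33) were also higher. Egr1, of the same zinc finger family, had 60, 57.3 and 47 CPM in hippocampus and 135, 125 and 110 CPM in cortex (-1.17, SE 0.11), and Egr4 was lower (-1.01). Of 4 nuclear long noncoding RNAs, Neat1 (0.78), Malat1 (0.75) and Meg3 (0.69) were higher, but Meg3 stood at 0.14 and -0.20 against the r and n series and Neat1 was not called against the n series (0.48). Of 12 genes of DNA methylation, Mbd1, a methyl-CpG binding protein, was higher with 46.2, 49.4 and 48.1 CPM in hippocampus and 17.9, 18.1 and 17.2 CPM in cortex (1.44, SE 0.08). Dnmt1 was higher by 0.23 (SE 0.08, edgeR adjusted p = 0.033) and lost this call when any of 5 single libraries was left out. Against the r series 5 of the 12 genes were higher and 2 lower. Dnmt3a, the methyltransferase that the series is about, had 160, 147 and 133 CPM in hippocampus and 154, 171 and 153 CPM in cortex, and was not called (-0.12, SE 0.09, edgeR adjusted p = 0.29).

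The largest fold changes mixed region markers with widely expressed genes. The genes named here are the 15 called genes with the largest fold change in each direction among genes whose log2 CPM averaged 2 or more, with no overlap between tissues and a symbol that is not a clone or predicted name. Among the 15 with positive values stood Dsp, C1ql2, Lct, Grin2a and Grin2b, together with Polr2b, the second largest subunit of RNA polymerase II, at 54, 56.2 and 56.1 CPM in hippocampus and 0.374, 0.423 and 0.473 CPM in cortex (7.03, SE 0.13). The other 12 polymerase II subunits tested lay between -0.29 and 0.67. Nptxr, a neuronal pentraxin receptor, had 645, 922 and 913 CPM in hippocampus and 1.83, 3.43 and 2.01 CPM in cortex (8.38, SE 0.25). Nkain2 (9.03, and 10.15 without cortex library 1), Fndc10 (6.30), Rasgef1b (5.07), Slc9a4 (4.67), Styx (4.64), Zdhhc23 (4.40) and Plekhn1 (4.34) completed the group with Pou3f1.

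Among the 15 with the most negative values, Raver1 and Nupl1 had no count in the 3 hippocampus libraries and 28, 28.6 and 25.9 CPM and 20.8, 20.8 and 22.5 CPM in cortex. Against a floor of 3 counts over the hippocampus libraries they were at least 385-fold and at least 296-fold lower in hippocampus. Entpd4b had 1 count in hippocampus and 9451 in cortex, but it has a near-identical copy, so its reads may be split between copies. Pcdha11 (-6.70) and Pcdhgc4 (-6.13) share exons with other genes of their clusters, which makes their counts uncertain in the same way. Sept2, a cytoskeletal septin, had 1.82, 1.87 and 1.69 CPM in hippocampus and 130, 122 and 122 CPM in cortex (-6.11, SE 0.10). Pagr1a (-7.53), B4gat1 (-6.25), Taf9 (-6.23), Cpne1 (-5.70), Rab43 (-5.59), Xntrpc (-5.44) and Igfn1 (-5.30) were also in the group, as was Igf2.

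Altogether 31 tested genes were under 1 CPM in all libraries of one tissue and over 10 CPM in all of the other, 9 of them near absent from cortex and 22 near absent from hippocampus. The hippocampus files list 55487 gene identifiers and the cortex files 37310. The version suffix of the identifier differed between the files for 27 of these 31 genes (87.1%), for 27 of the 30 genes of largest change (90.0%) and for 89.6% of all genes tested. Among genes with the same suffix 41.9% were called, and among those with different suffixes 45.7%. At least 2-fold differences were called at 13.7% of genes with the same suffix and 10.5% of those with different suffixes. All 8 wild type cortex libraries share an annotation. The tissue, the annotation and any other difference between the hippocampus and cortex libraries thus cannot be told apart for these genes.

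**Figure D5:**
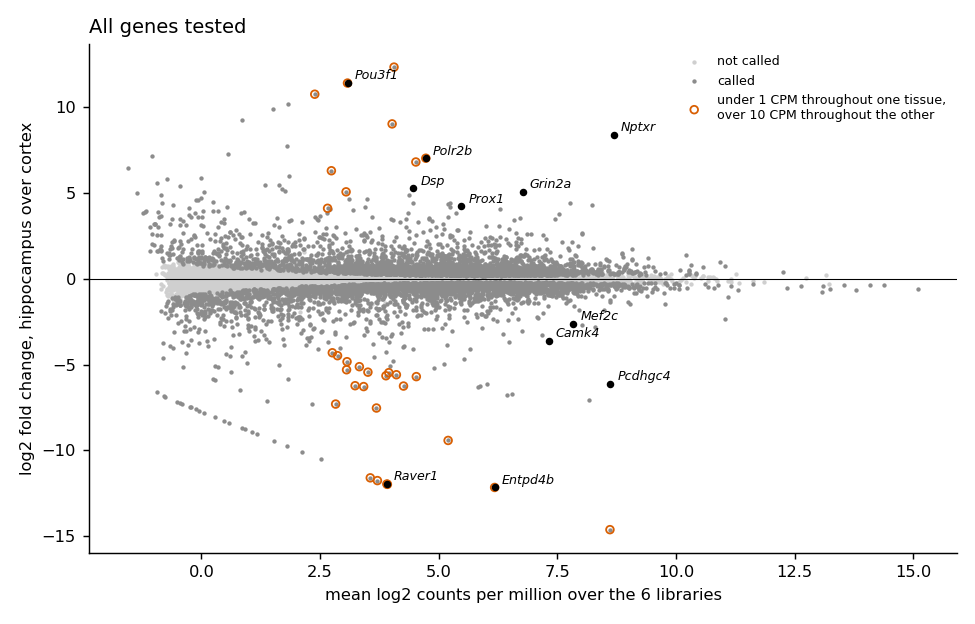
Log2 fold change of hippocampus over cortex against mean log2 CPM for the 14897 genes tested, dark grey where called, with open circles on the 31 genes under 1 CPM throughout one tissue and over 10 CPM throughout the other. Circled Pou3f1 and Polr2b lie at the top and Entpd4b and Raver1 at the bottom, and fitted values of genes at 0 in one tissue depend on the prior count.

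Cortex libraries of the same tissue, genotype and age also differed from each other. The r series against the plain series gave 5236 called genes of 15629 (33.5%), of which 769 differed at least 2-fold (4.92%). The n series against the plain series gave 3067 of 15448 (19.9%), of which 570 differed at least 2-fold (3.69%). Hippocampus gave 7929 calls against the r series (52.8% of genes tested) and 7140 against the n series (47.0%), with 2242 (14.9%) and 1921 (12.6%) at least 2-fold. These comparisons share the hippocampus or the plain cortex libraries with the main one, so they are not separate evidence. Side by side, Prox1 stood at 4.23, 4.26 and 4.18 against the plain, r and n series, Fibcd1 at 3.54, 3.95 and 4.01, Zbtb20 at 1.66, 2.21 and 2.21, and Foxp2 at -3.62, -4.08 and -3.81. Neurod1 stood at 1.82, 0.77 and 1.48. Calls made against the plain series ended against the r series for Htr1a (0.43), Colgalt2 (-0.25), Ntsr1 (-0.21), Cux1 (-0.26), Sulf2 (0.32), Mia (-0.70) and Tmem212 (-0.86). They ended against the n series for Trib2 (-0.18), Tle4 (-0.09), Sox10 (0.08), Olig2 (-0.14), Endou (-0.60), Nr3c1 (-0.25) and Dnmt1 (0.19). Calls for Sla, Slc1a3, Pdgfra, Ptgds and Ttr ended against both.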

How the data were processed

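Gene-level read counts are given as the authors deposited them, and per the submitters' processing notes STAR 2.5.4a, HTSeq 0.11.0 and the mouse build mm9 were used. The annotation release and the strand setting of the counting are not given in the sources used here, so overlapping and antisense genes cannot be told apart from each other. Gene identifiers were matched with the version suffix removed, which kept 32601 shared identifiers holding 98.78 to 98.80% of gene counts in hippocampus and 99.49 to 99.52% in cortex. Reads assigned to no gene, which stayed out of library sizes, were 22.71 to 23.73% of reads in hippocampus and 27.30 to 28.29% in cortex. Reads ambiguous between genes ran the other way. They were 0.926 to 0.950% of reads assigned or ambiguous in hippocampus and 0.456 to 0.473% in the plain cortex libraries.

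Genes were filtered with filterByExpr (17704 removed), scaled by TMM and tested with edgeR 4.0.16 (robust quasi-likelihood, R 4.3.3) on the 6 libraries without a block, with Benjamini-Hochberg adjustment. Alternatives used DESeq2 1.42.0, limma 3.58.1 with voom, other scalings, no filter, single libraries left out, the replicate number as a block and other cortex series. The scripts were tested on simulated data.

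Replicate pairs within a tissue differed by 6.3 to 13.5 times the chi-square per degree of freedom of counting noise, so no pair agreed within it. That noise does not show whether they share a source. Sex-linked counts, given at the end, set library 2 of each tissue apart from libraries 1 and 3. Libraries with the same number deviated together across the tissues (correlations 0.336, 0.360 and 0.291 for numbers 1 to 3, against -0.232 to -0.115 for unequal numbers). This pairing comes from the values and not from the labels. Each deviation was taken from the mean of the 3 libraries of its tissue. Positive values at equal numbers therefore force values at unequal numbers to be negative on average, so the negative range is not a separate contrast.

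The members, gene lists and tests were chosen with earlier results of these data known. Named genes are all members of the hippocampal field and cortical layer lists, up to 6 called members of each other list with the largest fold change, and the 15 genes of largest change in each direction. Outside this rule, Gad1, Gad2, Pvalb, Sst, Grin1, Neurod2, Dcx, Mki67, Nr3c1, Mbp, Gria3, Gabra4, Adarb2, Ndnf, Nos1, Lhx6, Sox6, Reln, Cnr1, Htr3a, Emx2, Pax6, Sox2, Stmn1, Tox, Meis2, Rarb, Grp, Chgb, Lrrc10b, mt-Co3, mt-Co2, mt-Atp6, mt-Nd2, mt-Cytb and the other Polr2 subunits were chosen after their values were seen. Some genes are counted in the lists but not reported here by name.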

Additional observations from a re-analysis of the deposited data

How the results depend on the processing

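Of 4201 values of 278 named genes under the alternatives, 3945 kept their direction and their side of the threshold, 172 lost a call, 42 gained one and 42 changed sign. The sign changes were as follows, as log2 fold change of hippocampus over cortex. With the r series of cortex, C1ql3 was -0.02, Igfbp5 0.17, Ociad2 -0.30, Lhx2 0.05, Etv1 -0.20, Parm1 -0.20, Tcerg1l -0.11, Nr4a2 -0.16, Osr1 0.74, Ptgds 0.79, Ogn 0.45, Aldh1a2 0.78 and Zic1 0.30. With the n series, Man1a was 0.30, Nectin3 0.30, Nr4a2 -0.17, Osr1 0.66, Pdgfra 0.08, Ptgds 0.08, Ogn 0.07, Aldh1a2 0.35 and Meg3 -0.20. With all 8 cortex libraries, Man1a was 0.02, Nectin3 0.03, Ociad2 -0.02, Nr4a2 -0.06 and Osr1 0.37. With library totals only, Lhx2 was 0.06, S100a10 0.03 and Osr1 0.04. With identifiers of the same version suffix, an alternative added after seeing the data, Igfbp5 was 0.02. With the replicate block, Scnn1a was -0.03. With single libraries left out, Man1a ran from -0.26 to 0.06, Lhx2 from -0.14 to 0.12, Scnn1a from -0.15 to 0.17, Parm1 from -0.06 to 0.33, S100a10 from -0.09 to 0.03 and Osr1 from -0.49 to 0.27. The cause was not tested.

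The count of called genes was 6746, and 6180 to 7137 under the other scalings, tests and filter, 8152 with the replicate block and 5466 to 7246 with single libraries left out. The at least 2-fold count was 1608, and 1598 to 1759 with single libraries left out. The same version suffix left 1524 genes to test, of which 566 were called and 198 differed at least 2-fold. The r against plain series count ran from 2559 to 5315 with single libraries left out (3403 without r library 1 and 2559 without r library 2), and the n against plain count from 2124 to 2772, with 4980 and 2190 under the block. The block added calls for C1ql3, Etv1, Ldb2, Moxd1 and Grin1, ended those of Ttr (adjusted p = 0.13), Aqp1 (0.055) and Ugt8a (0.088), and changed no other call among the named genes.

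Each tissue has 3 libraries and hippocampus library 1 is the shallowest, at 8677149 gene counts. Tissue and annotation cannot be told apart in any of these fits.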

Other observations

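Libraries that share a number across the tissues also shared counts of sex-linked genes. Xist, the RNA of the inactive X chromosome, had 1, 11497 and 2 counts in hippocampus libraries 1, 2 and 3, and 4, 11041 and 1 counts in cortex libraries 1, 2 and 3. The Y-linked gene Ddx3y had 346, 0 and 647 counts in hippocampus and 1199, 0 and 862 counts in cortex. Library 2 of each tissue thus stems from another animal than libraries 1 and 3. Whether libraries 1 and 3 stem from different animals is not shown by these counts.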
